A study of Mus musculus with 12 samples.

Results

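The change in gene expression that accompanied pregnancy was compared between lung and liver of the mouse. For each gene the quantity of interest was the lung change (pregnant minus virgin lung) minus the liver change (pregnant minus virgin liver), in log2 units, called the tissue difference here. All 12 of the 12 arrays in the series entered it: 3 from virgin lung, 3 from pregnant lung, 3 from virgin liver and 3 from pregnant liver. The mice were female NOD/SCID animals from an in-house colony, 8 to 10 weeks old when the experiments began, and all 4 groups shared this immunodeficient background, in which functional T and B lymphocytes are missing. Pregnant mice were taken at day 16 of gestation, and virgin mice were the controls. Each array was hybridised with RNA pooled from 2 mice, so each group is represented by 3 pools and all errors and p-values below measure the spread between pools. Genes entered through probe sets that the platform annotation assigned to a single symbol, which gave 18193 genes. A gene was taken as expressed in a tissue when its mean over the 6 arrays of that tissue was at least 6 log2 units, and 7542 genes met this level in both lung and liver.

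Pregnancy exposes both organs to the same circulating hormones, among them placental lactogens, progesterone, oestrogens and glucocorticoids. The liver answers with growth and with altered lipid, bile acid and plasma protein metabolism. The lung meets a larger blood volume and a higher demand for gas exchange. Cells of both organs carry many of the same receptors and enzymes, so a gene expressed in both can respond alike, respond in 1 organ alone or respond in opposite directions.

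The tissue labels were checked against marker genes. Of 24 measured lung epithelial markers, 22 stood at or above 6 log2 units in both lung groups, against 5 in virgin and 6 in pregnant liver. Of 20 hepatocyte markers, all 20 reached that level in both liver groups, against 0 in virgin and 1 in pregnant lung. Correlations between arrays were 0.9931 to 0.9966 within a group and 0.7675 to 0.7811 between the organs. On the arrays of virgin and pregnant liver pool 3 the 27 control probe sets that detect the poly-A spike-in averaged 4.68 and 5.01 log2 units, against 10.8 to 11.3 on the other 10 arrays. The labels name no batch, and why these 2 arrays, 1 of each state, lack the signal is not given, so liver values are also given without them where that matters. The heart and striated muscle list (16 genes) averaged 7.79 to 8.13 in virgin lung and 7.13 to 8.73 in pregnant lung, so its level varied between lung pools more than between the lung groups. In pooled bulk tissue, fewer cells of a type and less RNA per cell cannot be told apart.

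The response to pregnancy differed between lung and liver for 1221 of the 18193 genes (6.71%) at an adjusted p under 0.05. The lung change was the higher one for 608 genes (3.34%) and the lower one for 613 (3.37%). A tissue difference of at least 1 log2 unit was found for 372 of the called genes. Most called differences came with a called change in liver: 1057 were called in liver only, 49 in lung only, 9 in both and 106 in neither tissue alone. The liver change was the larger in size for 1075 of the 1221. For comparison, 108 genes (0.594%) passed in lung and 2482 (13.6%) in liver over all genes tested, 1096 of them higher (6.02%) and 1386 lower (7.62%) in pregnant liver.

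Among the 7542 genes expressed in both organs, 753 (9.98%) had a called tissue difference, 405 with the lung change higher and 348 with it lower. The liver alone was called for 681 of these, the lung alone for 12, both for 4 and neither for 56. The lung and liver changes had opposite signs for 521 of the 753 and the same sign for 232. A called difference favours opposite signs by its construction, so these counts are a description. The median absolute change was 0.0857 log2 units in lung and 0.163 in liver. Across these genes the changes were weakly related (Pearson r = 0.106, Spearman rho = 0.077, n = 7542 genes measured on the same arrays, which are not independent replicates).

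A called liver change was followed by a lung change of the same sign for 856 of the 1542 liver-called genes expressed in both organs, or 55.5%, beside 51.9% over all 7542. For 685 of the 1542 the tissue difference was called, and for 857 it was not. Absence of a call does not show equal responses: the 95% interval of the tissue difference reached a median of 0.312 log2 units to either side, and 132 of the 857 had an interval that lay within 0.5 log2 units of 0. In the other direction, 40 genes expressed in both organs were called in lung, and the liver change had the same sign for 29 of them (72.5%), with 16 called in liver as well.

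**Figure D1:**
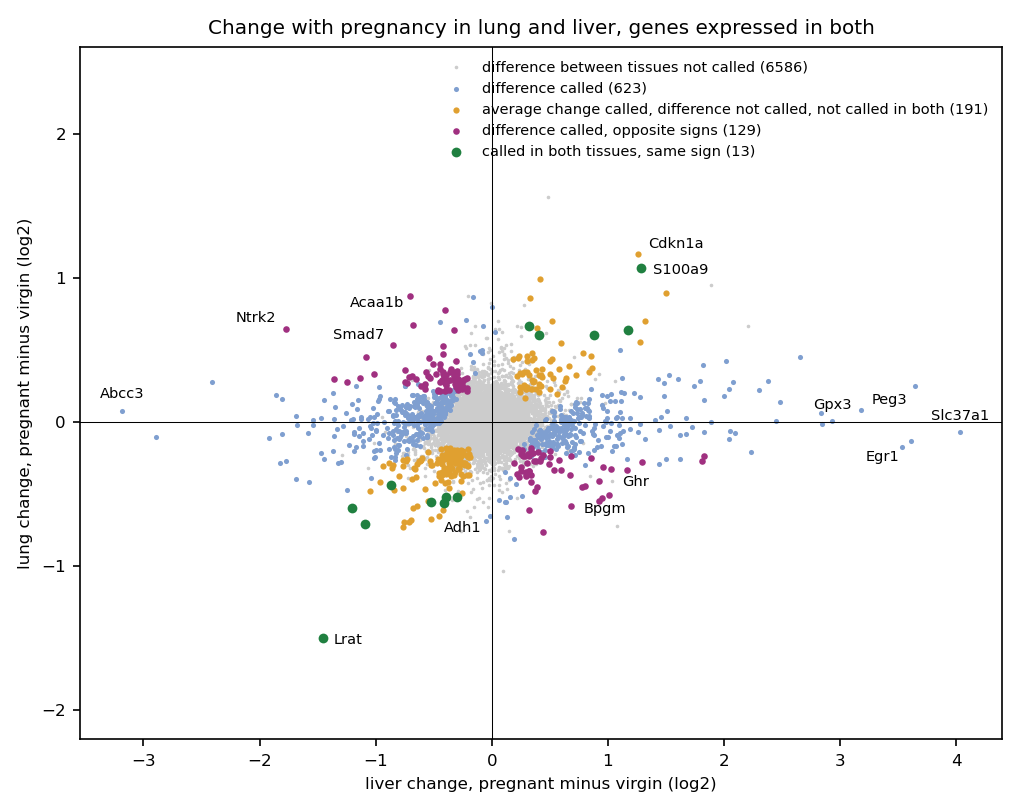
Lung change against liver change, pregnant minus virgin in log2 units, for the 7542 genes expressed in both organs, 1 point per gene. The cloud is wider along the liver axis than along the lung axis, and 129 genes with opposite signs lie in the upper left and lower right, and the 13 genes called alike lie in the upper right and lower left.

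The largest tissue differences were changes of liver with no called change in lung. A2m, which encodes the broad protease inhibitor alpha-2-macroglobulin, read 3.72, 3.88 and 3.76 log2 units in virgin liver and 10.26, 10.33 and 10.63 in pregnant liver. In lung it read 3.67, 3.66 and 3.35 in virgin and 3.44, 3.48 and 3.70 in pregnant pools. The liver groups were far apart and the lung groups overlapped. Groups that do not overlap are common with 3 pools each: 3356 of the 18193 genes (18.4%) in lung and 5099 (28.0%) in liver. The tissue difference of A2m was -6.64 ± 0.17 log2 units (SE, adjusted p = 5.53e-11), the largest fitted value in size of all genes. Its virgin liver and lung values lay below the array medians of 4.49 to 4.56, so no fold is given. Below it in size, with the liver change the higher one, stood Slc16a6 (-4.16 ± 0.26), Slc37a1 (-4.11 ± 0.21), Cacna1h (-4.05 ± 0.28), Crybb3 (-3.91 ± 0.18), Egr1 (-3.75 ± 0.56) and Nptx1 (-3.74 ± 0.16). Slc16a6 and Slc37a1 encode transporters of the monocarboxylate and the glucose-6-phosphate families, and Cacna1h encodes a T-type calcium channel.

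Some of these genes were well expressed in lung and did not respond there. Slc37a1 read 7.70, 7.57 and 7.71 log2 units in virgin lung and 7.61, 7.56 and 7.59 in pregnant lung, while in liver it went from 5.51, 5.55 and 5.97 to 9.46, 9.60 and 10.08. Pregnant liver thus lay above lung, and virgin liver below it. Gpx3, which encodes the secreted glutathione peroxidase, read 12.59, 12.43 and 12.48 in virgin and 12.52, 12.50 and 12.49 in pregnant lung, against 5.91, 6.33 and 6.21 in virgin and 9.06, 9.01 and 9.19 in pregnant liver. Its lung change was 0.00 ± 0.11 (adjusted p = 0.996), its liver change 2.93 ± 0.11 (adjusted p = 5.31e-10) and its tissue difference -2.93 ± 0.15 (adjusted p = 5.36e-08). The imprinted gene Peg3 had a tissue difference of -3.10 ± 0.17, with a lung change of 0.08 ± 0.12 and a liver change of 3.18 ± 0.12. It read 7.08 to 7.56 in the 6 lung pools, 7.04 to 7.31 in virgin liver and 10.27 to 10.40 in pregnant liver. Vwf, which encodes von Willebrand factor of endothelium and platelets, read 5.39, 5.18 and 5.19 in virgin and 7.34, 7.79 and 8.07 in pregnant liver, against 9.76 to 10.15 over the 6 lung pools (tissue difference -2.34 ± 0.21, adjusted p = 1.33e-05).

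The immediate early transcription factor gene Egr1 was the most variable of this group. It read 6.99, 8.36 and 6.59 in virgin and 10.88, 11.50 and 10.41 in pregnant liver, and 8.53, 8.47 and 8.76 in virgin and 8.28, 7.98 and 9.11 in pregnant lung. The liver groups did not overlap and the lung groups did. Its tissue difference was -3.75 ± 0.56 (adjusted p = 0.001). Of 25 immediate early genes, 9 rose in liver and 0 were called in lung, but the tissue difference was called for only Egr1 and Gadd45b (-1.20 ± 0.14). Fos, for example, changed by 2.21 in liver and 0.67 in lung, with no called tissue difference. The medians of the list were 0.294 in lung and 0.109 in liver.

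In the other direction, the liver fell while lung did not change detectably. Cyp4a14, a PPAR-alpha target that hydroxylates fatty acids, read 8.60, 8.50 and 8.95 in virgin and 4.65, 3.99 and 5.68 in pregnant liver, and 3.00 to 3.17 on all 6 lung arrays. Its tissue difference of 3.94 ± 0.41 (adjusted p = 4.31e-05) was the largest fitted value above 0. All 3 pregnant liver pools lay below 6 log2 units, near the array medians, so no fold is given. Abcc3, which encodes a basolateral exporter of conjugated bile acids, was expressed in both organs. It read 9.65, 9.75 and 9.76 in virgin and 6.29, 6.52 and 6.81 in pregnant liver, against 7.42, 7.25 and 7.16 in virgin and 7.32, 7.28 and 7.46 in pregnant lung (tissue difference 3.26 ± 0.17, adjusted p = 6.54e-08). Pregnant liver had moved from above the lung values to below them. Mfsd2a, a transporter of lysophosphatidylcholine, had a tissue difference of 3.06 ± 0.32. Ddah1, which degrades the nitric oxide synthase inhibitor asymmetric dimethylarginine, had one of 2.79 ± 0.19, and the small heat shock gene Hspb1 one of 2.68 ± 0.20. The apoptosis gene Bmf stood second among the differences above 0 (3.72 ± 0.16), but its call rests on 1 probe set: among its probe sets without a shared-sequence suffix the brightest gave 0.21 (adjusted p = 0.678).

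**Figure D2:**
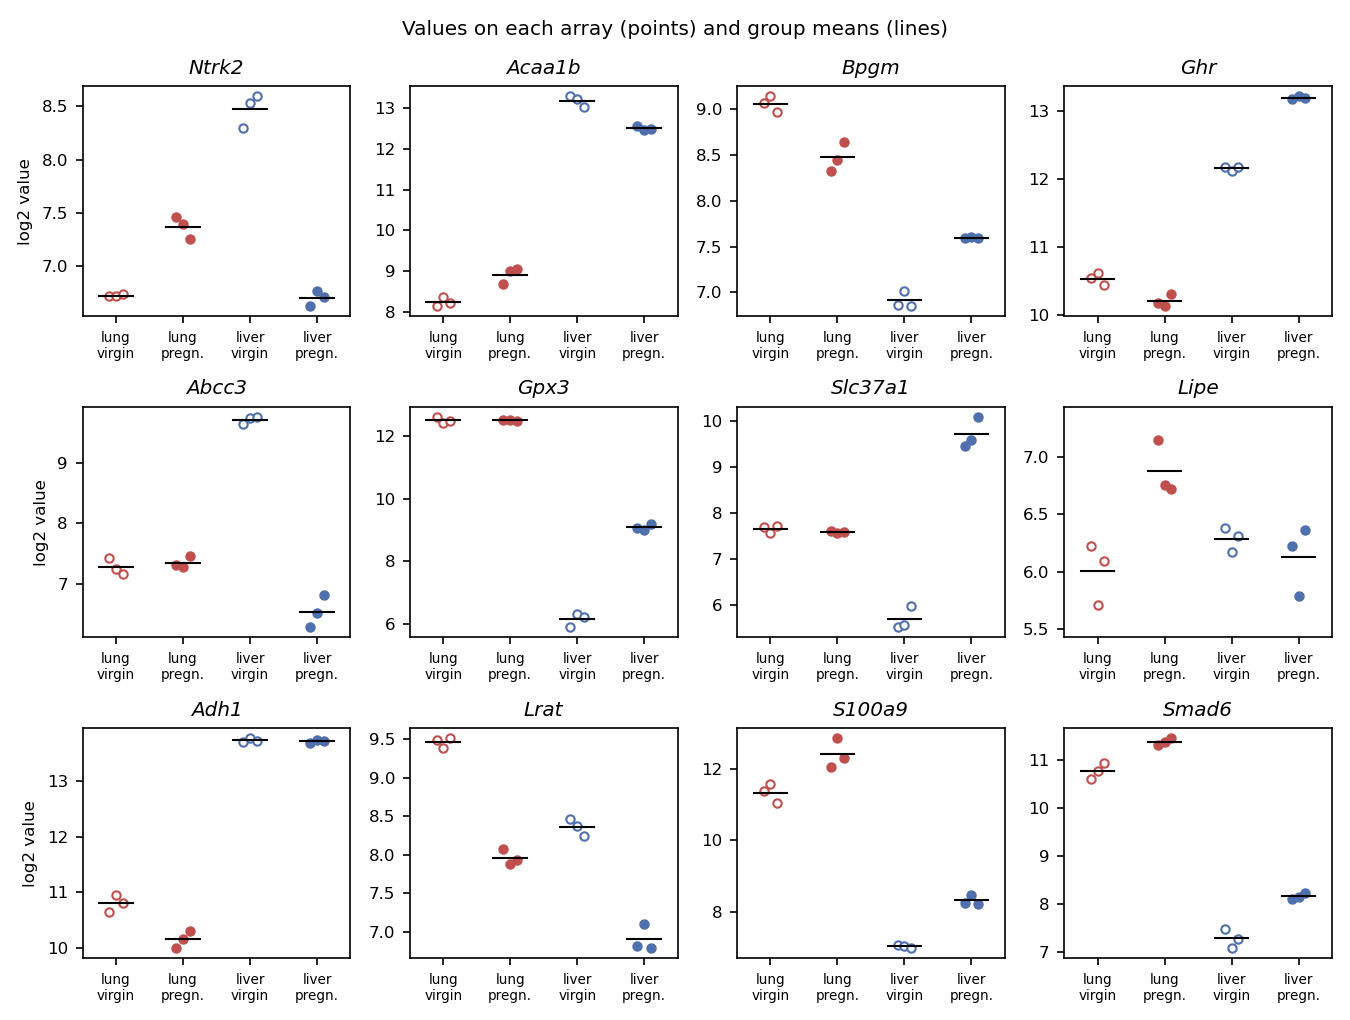
Log2 values on each array for 12 genes, with virgin pools as open and pregnant pools as filled points, lung in red, liver in blue, and lines at the group means; the vertical scales differ between panels. Ntrk2, Acaa1b and Bpgm change in opposite directions with both changes called, Ghr has opposite signs with the lung change not called, Abcc3, Gpx3 and Slc37a1 move in liver, Lipe and Adh1 move in lung, and Lrat, S100a9 and Smad6 move the same way in both organs.

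Fewer tissue differences came with a change of lung. Among genes expressed in both organs, 12 were called for the difference and in lung but not in liver, 7 with a rise and 5 with a fall in lung. The hormone-sensitive lipase gene Lipe read 6.22, 5.72 and 6.09 in virgin and 7.15, 6.76 and 6.72 in pregnant lung, against 6.38, 6.17 and 6.31 in virgin and 6.23, 5.79 and 6.36 in pregnant liver. The lung groups were apart and the liver groups overlapped. The lung change was 0.86 ± 0.17 (adjusted p = 0.0349), the liver change -0.16 ± 0.17 and the tissue difference 1.02 ± 0.23 (adjusted p = 0.0172). With the mean of its probe sets the tissue difference of Lipe was 0.34 (adjusted p = 0.329). Gata2, a transcription factor of endothelium and mast cells, rose by 0.70 ± 0.13 in lung (tissue difference 0.93 ± 0.19), and Eng, the endothelial co-receptor endoglin, rose by 0.50 ± 0.09 (tissue difference 0.59 ± 0.13, called in 10 of 12 fits with an array left out). The interferon-induced gene Oas2 (tissue difference 0.80 ± 0.22, adjusted p = 0.0488) kept its call in 2 of 12 fits with an array left out.

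On the falling side, Adh1, an alcohol and retinol dehydrogenase, read 10.66, 10.96 and 10.82 in virgin and 10.00, 10.16 and 10.31 in pregnant lung, and 13.68 to 13.76 on all 6 liver arrays. Its lung change was -0.65 ± 0.10 (adjusted p = 0.0114), its liver change -0.02 ± 0.10 and its tissue difference -0.63 ± 0.14 (adjusted p = 0.0149). The difference was -0.93 ± 0.16 for Oaf, -0.68 ± 0.15 for Ikbip, -0.64 ± 0.15 for Gpsm2 and -0.60 ± 0.15 for the cell cycle inhibitor gene Cdkn2c. With an array left out, Gpsm2 kept its call in 8 and Cdkn2c in 6 of 12 fits, and without both liver arrays that lack spike-in signal neither was called (adjusted p = 0.0574 and 0.0897). With liver pools 1 and 2 against liver pool 3 the difference was -0.47 and -0.86 for Cdkn2c and -0.55 and -0.94 for Ikbip, whose call was lost with the mean of its probe sets (adjusted p = 0.0506). A further probe set of Ikbip, at a mean of 6.165, had a called difference of -0.72 (adjusted p = 0.0294). It gave -0.09 in lung and 0.63 in liver, so the fall of Ikbip in lung rests on 1 probe set.

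Several genes with a lung response lay under 6 log2 units in liver. Lox, the cross-linking enzyme of collagen and elastin, read 8.80, 8.32 and 7.92 in virgin and 10.58, 10.15 and 10.11 in pregnant lung, against 4.24 to 4.68 over all liver arrays (tissue difference 1.83 ± 0.27, adjusted p = 0.000918). Pdk4, which restrains glucose oxidation, read 6.61, 6.26 and 5.95 in virgin and 8.13, 7.74 and 7.08 in pregnant lung (1.38 ± 0.27, adjusted p = 0.0369). In liver it read 5.46, 6.12 and 5.61 in virgin and 4.64, 5.50 and 5.11 in pregnant pools (-0.64 ± 0.27, adjusted p = 0.142). The liver groups of Pdk4 overlapped while its lung groups did not, and the tissue difference was 2.02 ± 0.38 (adjusted p = 0.00564). The vasodilator peptide gene Adm rose by 1.09 ± 0.19 in lung, with a tissue difference of 1.38 ± 0.27. The microfibril gene Mfap4 fell by 0.98 in lung, with a tissue difference of -0.95 ± 0.19 (-1.09 with liver pools 1 and 2 and -0.67 with liver pool 3). The placental prolactin family gene Prl8a2 read 2.87, 2.98 and 2.85 in virgin and 5.65, 5.57 and 5.51 in pregnant lung, against 3.07 to 3.65 over all liver arrays (tissue difference 2.53 ± 0.18, adjusted p = 1.57e-06). No lung pool reached 6 log2 units for it. Of the 20 measured genes of that family, 3 rose in lung, 0 were called in liver and 2 had a called tissue difference.

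Opposite responses called in each organ on its own numbered 3 of the 7542 genes (0.0398%). This count is limited by the lung contrast, which called 40 of the 7542, and 16 of the 40 were also called in liver. Ntrk2, which encodes the neurotrophin receptor TrkB, read 6.72, 6.72 and 6.74 in virgin and 7.46, 7.39 and 7.26 in pregnant lung. In liver it read 8.29, 8.53 and 8.59 in virgin and 6.63, 6.76 and 6.71 in pregnant pools. The groups were apart in both organs, and pregnant liver ended at the level of virgin lung. Ntrk2 rose by 0.65 ± 0.10 in lung (adjusted p = 0.0098) and fell by 1.77 in liver (SE 0.10, adjusted p = 3.36e-08), a tissue difference of 2.42 ± 0.14 (adjusted p = 1.23e-07). Of its 7 further probe sets, 1 had a tissue difference of 2.89 (adjusted p = 4.57e-07), with 1.19 in lung and -1.71 in liver. The other 6 had mean levels of 2.47 to 5.72 and were not called.

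Acaa1b, a peroxisomal thiolase of fatty acid oxidation, read 8.14, 8.36 and 8.20 in virgin and 8.67, 9.0 and 9.04 in pregnant lung, and 13.29, 13.23 and 13.03 in virgin and 12.56, 12.45 and 12.50 in pregnant liver. It rose by 0.67 ± 0.11 in lung (adjusted p = 0.0204) and fell by 0.68 in liver (SE 0.11, adjusted p = 0.00101). The changes were near equal in size, and the tissue difference was 1.35 ± 0.16 (adjusted p = 0.000142). Bpgm, which makes the 2,3-bisphosphoglycerate that lowers the oxygen affinity of haemoglobin, read 9.07, 9.14 and 8.97 in virgin and 8.33, 8.45 and 8.65 in pregnant lung, and 6.86, 7.02 and 6.85 in virgin and 7.59, 7.61 and 7.59 in pregnant liver. It fell by 0.59 in lung (SE 0.10, adjusted p = 0.0198) and rose by 0.68 ± 0.10 in liver (adjusted p = 0.0003), a tissue difference of -1.27 ± 0.14 (adjusted p = 6.8e-05). Both further probe sets of Bpgm gave called differences of the same sign, -1.73 and -1.57.

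Bpgm is abundant in red cell precursors, and 3 of 18 erythroid markers had a called difference below 0: Tfrc, the transferrin receptor (-1.76 ± 0.25), Alas2, the erythroid haem synthesis enzyme (-1.42 ± 0.17), and Bpgm. Epb42, a red cell membrane gene, went the other way (0.67 ± 0.15), a call lost with the mean of its probe sets (adjusted p = 0.182). The mean log2 level of the 18 erythroid genes was 5.31 to 5.43 in virgin and 5.16 to 5.35 in pregnant lung, and 4.98 to 5.08 in virgin and 5.20 to 5.24 in pregnant liver. The part of red cell precursors in these changes was not tested. At lower levels 4 more genes were called in both organs with opposite signs. Fst, the gene of follistatin, which binds and blocks activins, read 4.76, 4.99 and 4.80 in virgin and 6.84, 6.60 and 6.79 in pregnant lung, and 5.10, 5.21 and 5.37 in virgin and 4.93, 4.20 and 4.55 in pregnant liver. Its tissue difference was 2.56 ± 0.22 (adjusted p = 5.85e-06). The further probe set of Fst, at a mean of 4.9, gave 0.725 in lung and -0.14 in liver. That is a called difference of 0.865 (adjusted p = 0.00654), so the size of the fall of Fst in liver rests on 1 probe set. Nol3 (-1.51 ± 0.16), Grp (-1.48 ± 0.24) and the serine synthesis gene Psat1 (-1.24 ± 0.18) fell in lung and rose in liver. In liver Grp (2.73 to 3.68) lay below the array medians and Psat1 (3.94 to 4.79) around them. With liver pools 1 and 2 against liver pool 3 the difference was -1.71 and -1.0 for Grp and -1.04 and -1.63 for Psat1.

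A wider rule for opposite responses took called differences with opposite signs and an unadjusted p under 0.05 in each organ, and it held 129 genes. Of these, 72 were higher in pregnant lung and lower in pregnant liver and 57 the reverse. With each array centred on its median that split became 101 against 37. Liver was called for 88 of the 129, lung for 5 and neither for 39, so for most of them the lung side rests on an unadjusted p. The rule fixes the opposite signs, which are therefore no finding of their own.

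On the side with a higher lung value stood Smad7, an inhibitor of TGF-beta signalling. It read 8.56, 8.61 and 8.83 in virgin and 9.10, 9.32 and 9.18 in pregnant lung, and 7.19, 7.03 and 7.28 in virgin and 6.04, 6.71 and 6.20 in pregnant liver (tissue difference 1.39 ± 0.21, adjusted p = 0.00115). The groups of Smad7 did not overlap in either organ, as for 18.4% of all genes in lung and 28.0% in liver. Its lung change alone was not called (adjusted p = 0.162). Igfbp3, a carrier of insulin-like growth factors, had a lung change of 0.78, a liver change of -0.40 and a tissue difference of 1.18 ± 0.25 (adjusted p = 0.0109). Clec1b, the platelet receptor CLEC-2, had 0.87, -0.71 and 1.58 ± 0.34 (adjusted p = 0.0132). The 16 platelet markers averaged 7.45 to 7.56 log2 units in virgin and 7.69 to 8.40 in pregnant lung, and 5.32 to 5.34 in virgin and 5.49 to 5.82 in pregnant liver. The part of platelets in the Clec1b values was not tested. Sult1d1 (1.53 ± 0.26), Pxdc1 (0.89 ± 0.14), Fnip2 (0.91 ± 0.17) and Lpin2 (0.85 ± 0.15) also had called differences above 0.

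On the side with a lower lung value, both desaturases of polyunsaturated fatty acids rose in liver. Fads1 read 9.69, 9.48 and 9.49 in virgin and 9.14, 9.18 and 9.12 in pregnant lung, and 11.59, 11.49 and 11.67 in virgin and 12.39, 12.44 and 12.71 in pregnant liver. The groups were apart in both organs, the lung change of -0.41 was not called (adjusted p = 0.11) and the tissue difference was -1.34 ± 0.14 (adjusted p = 6.63e-05). Fads2 had a tissue difference of -1.25 ± 0.18 (adjusted p = 0.000682), with a lung change of -0.45 that was not called (adjusted p = 0.163) and a liver change of 0.80. The growth hormone receptor gene Ghr read 10.55, 10.62 and 10.44 in virgin and 10.18, 10.14 and 10.31 in pregnant lung, and 12.19, 12.12 and 12.18 in virgin and 13.17, 13.21 and 13.19 in pregnant liver. Ghr rose by 1.03 ± 0.08 in liver (adjusted p = 1.78e-06), its lung change of -0.33 ± 0.08 was not called (adjusted p = 0.12) and its tissue difference was -1.36 ± 0.12 (adjusted p = 9.26e-06). The glycogen-binding protein gene Stbd1 (-1.52 ± 0.19), Hdhd3 (-1.23 ± 0.21), Ivns1abp (-1.05 ± 0.16) and the creatine synthesis gene Gamt (-0.84 ± 0.17) had called differences of the same sign. Iigp1, an interferon-induced GTPase, had -1.21 ± 0.25 (adjusted p = 0.0102).

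Of the 40 gene lists, mitosis had the lowest median tissue difference. Of 35 genes of mitosis, 29 (82.9%) had a lung change below 0 and a liver change above 0, against 24.7% of all genes tested. In liver 10 rose and 0 fell, in lung 1 fell and 0 rose, and the tissue difference was called below 0 for 11 and above 0 for 0. The median change of the list was -0.411 in lung and 0.495 in liver, with a median tissue difference of -0.856 beside 0.004 over all genes. That median was -0.668 with liver pools 1 and 2 and -1.190 with liver pool 3, the arrays without spike-in signal. Over the other settings it lay between -1.46 and -0.42. Only 5 of the 35 were expressed in both organs by the level used here.

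Ccna2, cyclin A2 of S phase and mitosis, read 5.58, 6.20 and 5.77 in virgin and 4.76, 5.16 and 4.84 in pregnant lung, and 4.80, 5.81 and 5.48 in virgin and 6.17, 6.41 and 6.67 in pregnant liver. The groups were apart in both organs. Its tissue difference was -1.99 ± 0.32 (adjusted p = 0.00191), with 1.06 ± 0.23 in liver (adjusted p = 0.00664) and -0.93 ± 0.23 in lung (adjusted p = 0.101). Mki67, the proliferation antigen Ki-67, read 6.05, 6.56 and 6.22 in virgin and 5.53, 5.93 and 5.78 in pregnant lung, and 5.15, 6.19 and 5.79 in virgin and 6.38, 6.64 and 6.96 in pregnant liver (-1.48 ± 0.32, adjusted p = 0.0121). Virgin liver pool 1 was the lowest liver value for both genes. Cyclin B2, Ccnb2, had a tissue difference of -2.24 ± 0.51 (adjusted p = 0.0174), which was not called without both liver arrays that lack spike-in signal (adjusted p = 0.0532). Birc5, which encodes survivin, had -2.23 ± 0.60 (adjusted p = 0.0401) and kept its call in 3 of 12 fits with an array left out (-1.86 with liver pools 1 and 2 and -2.98 with liver pool 3). Hmmr had -1.74 ± 0.34, but among its probe sets without a shared-sequence suffix the brightest was not called (adjusted p = 0.392).

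Of 36 DNA replication genes, the lung change was below 0 for 35, while the liver change was below 0 for 18. In lung 3 fell, in liver 4 rose and 3 fell, and the tissue difference was called below 0 for 7 and above 0 for 0, with medians of -0.365 in lung and -0.005 in liver. The licensing factors Cdc6 (-1.69 ± 0.22, adjusted p = 0.000387) and Cdt1 (-1.47 ± 0.29, adjusted p = 0.0066), cyclin E2, Ccne2 (-1.22 ± 0.25), and the uracil glycosylase gene Ung (-1.04 ± 0.19) had called differences. Cdt1 read 7.68, 8.11 and 7.87 in virgin and 7.15, 7.58 and 7.30 in pregnant lung, and 7.36, 7.64 and 7.02 in virgin and 8.62, 8.37 and 7.80 in pregnant liver. The thymidine kinase gene Tk1 fell in both organs, by 0.97 in lung (adjusted p = 0.0214) and by 0.82 in liver (adjusted p = 0.00455), with a tissue difference of -0.15 ± 0.24.

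**Figure D3:**
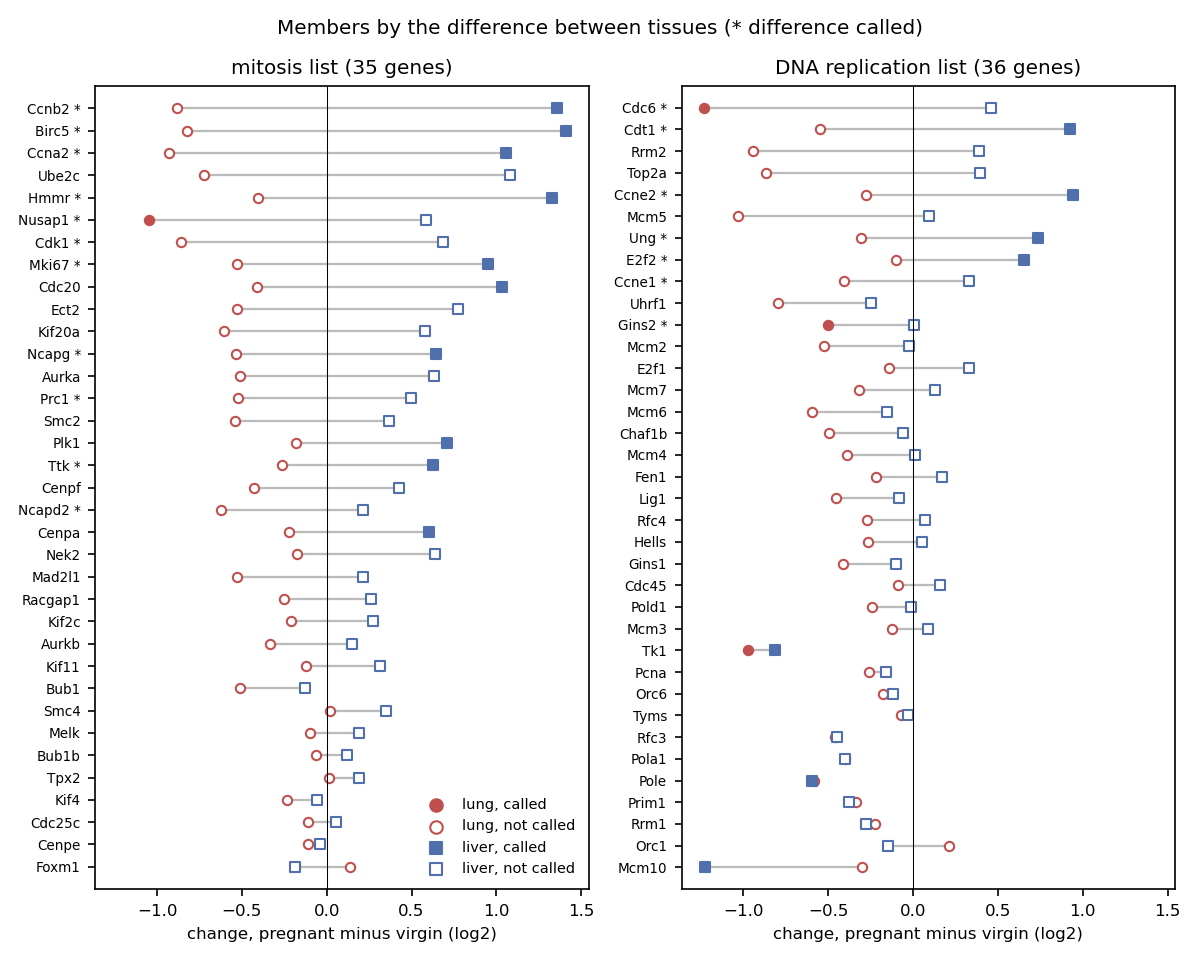
Lung (red circles) and liver (blue squares) changes in log2 units for 35 mitosis and 36 DNA replication genes, ordered by the tissue difference, with filled symbols where the change was called and an asterisk where the tissue difference was called. Most mitosis genes lie to the left of 0 in lung and to the right in liver, while Tk1 lies to the left of 0 in both.

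Promoters of mitosis genes are shown because 11 members of the list had a called tissue difference and because these genes share known promoter elements. CCAAT boxes are bound by NF-Y, and the element TTTGAA is the core of the cell cycle genes homology region. RefSeq promoters (GRCm38.p6, from 250 bases before to 50 after the gene start) were at hand for 14452 of the genes tested and for 28 of the 35. CCAAT, searched on both strands, occurred in 23 of the 28 (82.1%) and in 38.2% of all 14452 promoters. TTTGAA, searched on both strands, occurred in 21 of the 28 (75%) and in 13.3% of all. In the DNA replication list 18 of 31 promoters held CCAAT (58.1%) and 4 held TTTGAA (12.9%). CCAAT occurred in 16 of 17 promoters of the cholesterol list (94.1%) and 12 of 19 of the clock list (63.2%). It occurred in 10 of 22 of the glucocorticoid list (45.5%) and 11 of 25 of the interferon list (44%). A high share of CCAAT was thus not particular to mitosis genes. A match is a description of the sequence and not evidence of binding. In the promoters of Ccnb2 (chr9:70421505-70421804, minus strand) and Mki67 (chr7:135716330-135716629, minus strand), written 5′ to 3′, capitals mark each CCAAT (or ATTGG, its reverse complement) and each TTTGAA.
Ccnb2: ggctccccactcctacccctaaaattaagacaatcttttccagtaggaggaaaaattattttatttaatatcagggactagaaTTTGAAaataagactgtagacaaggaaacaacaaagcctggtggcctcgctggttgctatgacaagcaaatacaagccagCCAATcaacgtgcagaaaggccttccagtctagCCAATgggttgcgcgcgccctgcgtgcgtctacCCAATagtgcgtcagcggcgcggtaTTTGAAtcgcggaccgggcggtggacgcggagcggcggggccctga
Mki67: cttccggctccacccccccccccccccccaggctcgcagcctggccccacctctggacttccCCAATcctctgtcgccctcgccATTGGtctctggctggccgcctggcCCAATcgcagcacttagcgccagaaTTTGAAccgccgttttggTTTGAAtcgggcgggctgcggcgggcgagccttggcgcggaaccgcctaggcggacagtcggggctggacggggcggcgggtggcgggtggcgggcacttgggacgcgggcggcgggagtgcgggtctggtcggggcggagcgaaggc

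Genes called in both organs with the same sign numbered 13 of the 7542 expressed in both (0.172%), 5 risen and 8 fallen. The tissue difference was called for 1 of them, Tlcd2. Lrat, which esterifies retinol for storage, changed most. It read 9.49, 9.39 and 9.51 in virgin and 8.08, 7.88 and 7.93 in pregnant lung, and 8.46, 8.38 and 8.24 in virgin and 6.82, 7.11 and 6.79 in pregnant liver. The groups were apart in both organs, the falls were 2.83-fold in lung and 2.74-fold in liver, and the tissue difference was -0.05 ± 0.15 with a 95% interval of -0.36 to 0.27. By this probe set the response of Lrat thus differed between the organs by no more than 0.36 log2 units at this confidence. Its further probe set, at a mean of 5.88, gave -1.32 in lung and -0.85 in liver. That is a tissue difference of -0.47, beyond this bound but not called by limma (adjusted p = 0.616).

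S100a9, a calcium-binding protein of neutrophils, read 11.37, 11.58 and 11.04 in virgin and 12.04, 12.85 and 12.31 in pregnant lung, and 7.07, 7.04 and 6.99 in virgin and 8.24, 8.48 and 8.23 in pregnant liver. It rose by 1.07 ± 0.18 in lung (adjusted p = 0.0186) and by 1.28 ± 0.18 in liver (adjusted p = 0.000221). The 95% interval of the tissue difference was -0.75 to 0.32. The 27 neutrophil markers averaged 6.32 to 6.59 in virgin and 6.74 to 7.44 in pregnant lung. In liver they averaged 5.33 to 5.36 in virgin and 5.55 to 5.86 in pregnant pools. Their mean log2 level was thus higher in every pregnant pool of both organs. The log2 of their summed values was 13.09 to 13.43 in virgin and 13.735 to 14.43 in pregnant lung. In liver that sum overlapped, at 13.11 to 13.26 in virgin and 12.83 to 13.21 in pregnant pools. The part of neutrophil number in the S100a9 rise was not tested. Of the 27, 4 rose in lung, 4 in liver and 10 on average over the organs, and 1 had a called tissue difference (Wfdc21, 0.67 ± 0.17). Wfdc21 kept that call in 5 of 12 fits with an array left out and lost it without both liver arrays that lack spike-in signal (adjusted p = 0.0671).

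Ccl9, a chemokine, rose by 0.64 ± 0.13 in lung and by 1.17 ± 0.13 in liver (tissue difference -0.54 ± 0.19, adjusted p = 0.11). Smad6, an inhibitor of BMP signalling, read 10.61, 10.77 and 10.94 in virgin and 11.30, 11.38 and 11.45 in pregnant lung, and 7.48, 7.09 and 7.28 in virgin and 8.11, 8.15 and 8.23 in pregnant liver. It rose by 0.60 ± 0.11 and 0.88 ± 0.11. The related inhibitor Smad7 had opposite estimates in the organs (tissue difference 1.39). Fkbp5, a co-chaperone of steroid receptors and a glucocorticoid target, rose by 0.67 ± 0.10 in lung and 0.32 ± 0.10 in liver. Further probe sets of Fkbp5, at means of 5.923 and 2.249, gave 0.10 and -0.14 in lung and 0.12 and 0.11 in liver. The size of its rise thus rests on 1 probe set. The serine protease inhibitor gene Serpina3n rose by 0.60 ± 0.10 in lung and 0.41 ± 0.10 in liver.

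Among the genes that fell in both organs, Nrep changed by -0.71 ± 0.15 in lung and -1.09 ± 0.15 in liver, and the lymphatic growth gene Ccbe1 by -0.56 ± 0.11 and -0.52 ± 0.11. With the mean of its probe sets the average of Ccbe1 was not called (adjusted p = 0.0972). The glutathione transferase gene Gstt1 fell by 0.44 in lung and 0.87 in liver (tissue difference 0.43 ± 0.12, adjusted p = 0.0521), and the quinone reductase gene Cryz by 0.56 and 0.41. Bmp5 fell by 0.52 and 0.30, and Haghl by 0.52 and 0.40. Further probe sets of Bmp5, at means of 5.104 and 5.977, gave -0.49 and -0.155 in lung and 0.04 and -0.31 in liver. For Haghl the brightest probe set without a shared-sequence suffix, at a mean of 4.741, gave an average change of 0.16 (adjusted p = 0.169), so its direction is not settled. Further probe sets of Haghl with such a suffix, at means of 5.951 and 6.35, gave -0.46 and -0.63 in lung and -0.32 and -0.37 in liver. Tlcd2 fell by 0.59 in lung and 1.20 in liver, a tissue difference of 0.61 ± 0.16 (adjusted p = 0.0382) that was 0.75 with liver pools 1 and 2 and 0.31 with liver pool 3. It kept that call in 3 of 12 fits with an array left out.

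**Figure D4:**
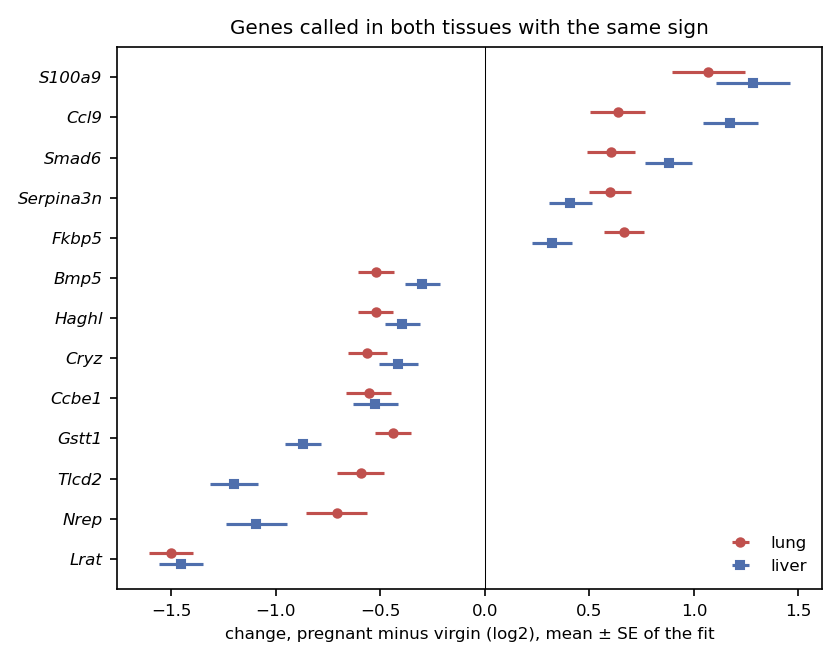
Lung (red circles) and liver (blue squares) changes in log2 units, with the standard error of the fit as bars (n = 3 pools per group), for the 13 genes called in both organs with the same sign. Lrat shows the largest falls and S100a9 the largest rises, with bars of the organs that overlap for both.

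The average of both changes uses all 12 arrays, and among the genes expressed in both organs it was called above 0 for 388 (5.14%) and below 0 for 591 (7.84%). A class of like responses was formed from these by asking for the same sign, an unadjusted p under 0.05 in each organ and no called tissue difference, and it held 203 genes, 68 risen and 135 fallen. Small tissue differences are in part the rule itself, and 124 of the 203 had a 95% interval of the difference within 0.5 log2 units of 0. Besides genes called alike above, the largest rises were those of the cell cycle inhibitor gene Cdkn1a (average 1.21, 1.16 in lung and 1.26 in liver), S100a8 (1.20), the interleukin-6 receptor gene Il6ra (1.01) and the BMP target Id1 (0.92). Cdkn1a was variable: it read 8.91, 9.08 and 9.05 in virgin and 10.78, 9.87 and 9.88 in pregnant lung, and 6.49, 7.43 and 7.54 in virgin and 7.46, 8.52 and 9.26 in pregnant liver. Its liver groups overlapped, and its tissue difference had a 95% interval of -1.26 to 1.06, which leaves wide room for a difference. The average of Cdkn1a was not called with a variance trend and robust moderation (adjusted p = 0.0602). Acot1, a thioesterase of fatty acyl-CoA, the basement membrane gene Col4a1 and the heat shock gene Hsph1 also rose on average, by 0.70, 0.63 and 0.61.

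Among the largest average falls were those of 3 interferon-induced GTPase genes, Gbp2, Gbp3 and Igtp, picked here for these falls and not a list of their own. Gbp2 read 10.29, 10.68 and 10.80 in virgin and 9.87, 9.83 and 10.02 in pregnant lung, and 7.39, 7.97 and 7.90 in virgin and 7.03, 6.85 and 7.31 in pregnant liver. The groups were apart in both organs, and the average change was -0.69 (adjusted p = 0.0025) with a tissue difference of 0.01 ± 0.24. Gbp3 averaged -0.75 (tissue difference 0.03 ± 0.24) and Igtp -0.70 (0.02 ± 0.29). The related gene Iigp1 had a tissue difference of -1.21. Over the whole interferon list of 31 genes, 2 rose in lung, 1 rose and 4 fell in liver, and the tissue difference was called above 0 for Oas2 and below 0 for Iigp1, with medians of 0.057 in lung and -0.024 in liver.

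The circadian clock list gave no called tissue difference, beside a share of 6.71% over all genes tested. For a list of 22 genes, 0 calls lie near that share and do not show equal responses. Per3, a negative limb gene of the circadian clock, read 8.00, 7.82 and 8.19 in virgin and 6.81, 7.43 and 7.68 in pregnant lung, and 7.94, 8.10 and 7.67 in virgin and 7.29, 7.26 and 6.90 in pregnant liver. Its average change was -0.73 (adjusted p = 0.00452), with a tissue difference of 0.06 ± 0.27. With the mean of its 6 probe sets the average was not called (adjusted p = 0.148). Ciart, a transcriptional repressor of the clock, had a lung change of -0.55, a liver change of -0.55 and a tissue difference of 0.00 ± 0.28. Of 22 clock genes, 0 had a called tissue difference by limma (3 had an unadjusted p under 0.05), 1 rose and 1 fell in liver and 0 were called in lung. The E-box CACGTG, the element of the CLOCK and BMAL1 proteins, occurred in 5 of 19 clock promoters (26.3%) and in 9.02% of all 14452. The promoter of Ciart (chr3:95882179-95882478, minus strand, GRCm38.p6) is shown as the clearest case, with its 3 E-boxes in capitals.
Ciart: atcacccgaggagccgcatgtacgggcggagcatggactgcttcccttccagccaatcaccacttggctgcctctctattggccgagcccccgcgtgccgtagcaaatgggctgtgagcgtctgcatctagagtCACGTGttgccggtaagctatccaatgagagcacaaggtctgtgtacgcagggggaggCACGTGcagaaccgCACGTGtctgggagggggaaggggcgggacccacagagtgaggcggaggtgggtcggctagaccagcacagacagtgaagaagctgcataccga

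Lists of liver metabolism gave the largest median tissue differences above 0. Of 21 genes of cholesterol synthesis and uptake, 19 fell and 1 rose in liver, 0 were called in lung, and the tissue difference was called above 0 for 12 and below 0 for 1. The medians were -0.156 in lung and -0.682 in liver, and 20 of the 21 were expressed in both organs. Pmvk, phosphomevalonate kinase, read 7.85, 7.75 and 7.26 in virgin and 8.13, 7.70 and 7.63 in pregnant lung, and 10.02, 10.27 and 10.11 in virgin and 8.45, 8.77 and 9.07 in pregnant liver (tissue difference 1.57 ± 0.26, adjusted p = 0.00209). Lss, lanosterol synthase, had 1.19 ± 0.18, and the sterol sensor gene Insig1 0.84 ± 0.16. The exception was Tmem97, the sigma-2 receptor, which rose in liver (-1.18 ± 0.19; -0.98 with liver pools 1 and 2 and -1.59 with liver pool 3). Dhcr7, the last enzyme of cholesterol synthesis, was in the class of like responses, at -0.41 in lung and -0.97 in liver (tissue difference 0.55 ± 0.18, adjusted p = 0.0859).

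Of 30 genes of fatty acid and triglyceride synthesis, 17 fell and 3 rose in liver, 0 were called in lung, and the tissue difference was called above 0 for 12 and below 0 for 2 (medians -0.085 in lung and -0.511 in liver). The lipogenic enzymes Me1 (1.72 ± 0.16), Fasn (1.52 ± 0.15), Acly (1.5 ± 0.17) and Elovl6 (1.5 ± 0.19; 1.74 with liver pools 1 and 2 and 1.03 with liver pool 3) led. Me1 read 9.01, 8.94 and 9.01 in virgin and 9.10, 8.74 and 8.87 in pregnant lung, and 10.67, 10.72 and 10.63 in virgin and 8.72, 8.77 and 9.11 in pregnant liver. The liver groups were apart and the lung groups overlapped. The 2 differences below 0 were those of Fads1 and Fads2 described above. Of 30 genes of fatty acid oxidation, 5 had a called difference above 0 and 3 below. Among them the fatty acid transporter gene Cd36 (-1.51 ± 0.17) rose in liver from 6.75, 6.82 and 7.0 to 8.36, 8.84 and 8.75 while all 6 lung arrays read higher, up to 12.37, and Vnn1 had -1.81 ± 0.25.

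Bile acid genes had a called difference above 0 for 8 of 27 and below 0 for 1, Cyp7b1 (-1.11 ± 0.20), with medians of 0.013 in lung and -0.304 in liver. After Abcc3, the sterol exporter gene Abcg5 (1.08 ± 0.14) and the bile acid importer gene Slc10a1 (1.38 ± 0.34) had the largest differences above 0. Slc10a1 kept its call in 8 of 12 fits with an array left out and lost it without both liver arrays that lack spike-in signal (adjusted p = 0.0947). Xenobiotic cytochromes had 7 of 26 above 0 and 0 below, with medians of 0.154 in lung and -0.380 in liver. Among them Cyp2b10 (1.42 ± 0.17; 1.21 with liver pools 1 and 2 and 1.82 with liver pool 3) fell in liver, whereas Cyp2c29 rose in lung (0.90, tissue difference 0.99 ± 0.24, not called without both liver arrays that lack spike-in signal, adjusted p = 0.0779). Genes of glucose and glycogen metabolism had 7 of 25 above 0, led by the fructokinase gene Khk (1.31 ± 0.19), and 2 below, led by Igfbp1 (-1.38 ± 0.24). The respiratory chain list fell in liver for 11 of 36 and was called in lung for 0, yet the tissue difference was called for 1 gene, Cox7a2 (0.53 ± 0.12), and that call was lost with the mean of its probe sets. The median tissue difference of this list was 0.207.

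Secreted and chaperone genes gave differences below 0. Of 29 acute phase genes, 9 rose and 2 fell in liver, 1 rose in lung, and the tissue difference was called below 0 for 8 and above 0 for 1 (medians 0.153 in lung and 0.300 in liver). After A2m these were led by Mt2 (-1.42 ± 0.28), Mt1 (-1.31 ± 0.22) and Lbp, the lipopolysaccharide-binding protein gene (-1.28 ± 0.17). For Mt2 the difference was -1.16 with liver pools 1 and 2 and -1.94 with liver pool 3. For Mt1 it was -1.12 and -1.70, and among probe sets without a shared-sequence suffix Mt1 was not called (adjusted p = 0.0842). Of 32 genes listed for folding and stress of the endoplasmic reticulum, all expressed in both organs, 13 rose in liver and 0 were called in lung. The tissue difference was called below 0 for 5 of the 32, with median changes of 0.087 in lung and 0.266 in liver. Dnajc12 (-3.71 ± 0.14), Creld2 (-1.14 ± 0.20) and the disulphide isomerase gene Pdia6 (-1.05 ± 0.16) led. Of 33 complement and coagulation genes, 11 rose and 3 fell in liver and 0 were called in lung. Their tissue difference was called below 0 for 4 and above 0 for 2, with a median of -0.179. The largest in each direction were C9 (2.34 ± 0.21) and coagulation factor VII, F7 (-1.44 ± 0.13).

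Some hormone and growth factor genes also differed, in both directions. Of 23 genes of steroid receptors and steroid metabolism, 4 had a called difference above 0 and 3 below, with a median of 0.13. Of 24 activin and follistatin genes, 2 were above 0 and 2 below (median -0.084). Of 20 insulin-like growth factor genes, 1 was above and 3 below (median -0.071). Of 25 genes of prolactin and growth hormone signalling, 1 was above and 2 below (median -0.077). Most members of these lists were not called. The corticosteroid carrier gene Serpina6 rose in liver by 2.42 ± 0.18 (tissue difference -1.70 ± 0.25), Cyp17a1, an enzyme of androgen synthesis, had -2.17 ± 0.24, and Hsd3b2 had 2.00 ± 0.16. Inhbb, which encodes a subunit of activin B, had -2.08 ± 0.38, in the opposite sense to Fst, the gene of its binding protein. Among 25 glucocorticoid target genes, 4 rose in lung, 5 rose and 1 fell in liver, 10 rose on average and the tissue difference was called above 0 for 4 and below 0 for 2, with medians of 0.315 and 0.256. The list held Fkbp5, which was called alike through its brightest probe set, and also Pdk4 and Mt2, with differences of opposite sign.

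**Figure D5:**
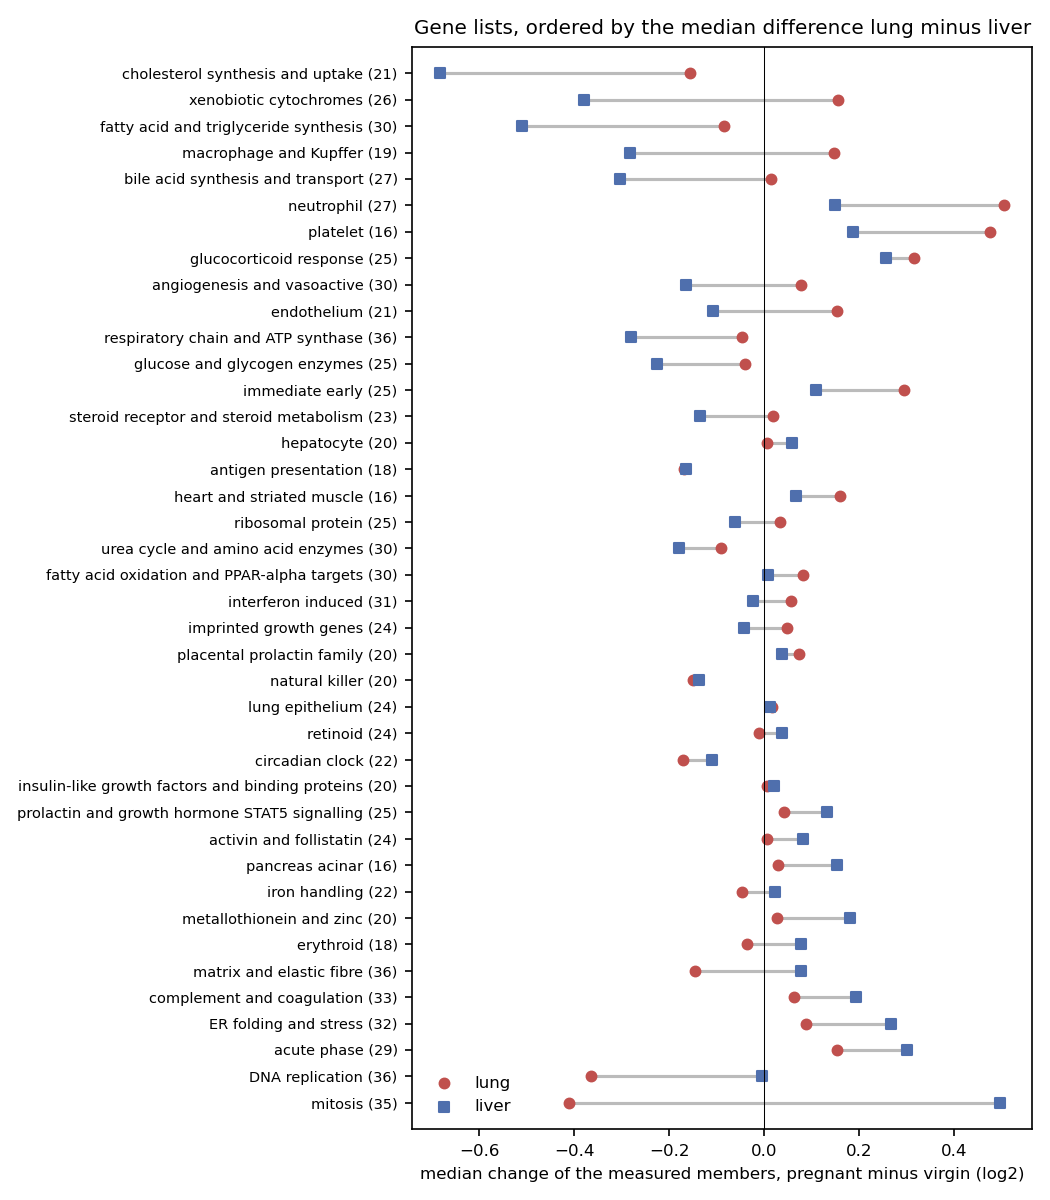
Median change in log2 units of the measured members (number in brackets) of 40 gene lists in lung (red circles) and liver (blue squares), ordered by the median tissue difference. The cholesterol list is at the top with medians of -0.156 in lung and -0.682 in liver, and the mitosis list at the bottom with -0.411 and 0.495.

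The ribosomal protein list and some cell marker lists had called shares on either side of the 6.71% over all genes tested. The share was 0.00% for ribosomal protein and hepatocyte genes, 4.17% for lung epithelium, 9.52% for endothelium and 15.8% for macrophages. Of 25 ribosomal protein genes 0 were called in lung, in liver or for the tissue difference by limma, and 1 had an unadjusted p under 0.05 for the difference. The members with the smallest p were Rps14 (0.31 ± 0.12, adjusted p = 0.174) and Rps18 (0.29 ± 0.14, adjusted p = 0.251). The 20 hepatocyte markers had 0 called differences by limma (4 with an unadjusted p under 0.05), with a median of 0.13, and the 24 lung epithelial markers had 1, Cyp2f2 (0.81 ± 0.13), which lay above 6 log2 units in both organs. The 21 endothelial markers had 1 above 0 (Eng) and 1 below (Vwf), with medians of 0.152 in lung and -0.108 in liver. Of 19 macrophage markers, Cd163 (0.87 ± 0.19) and Mrc1 (0.55 ± 0.15) had called differences above 0 and the chitinase-like gene Chil3 (-1.48 ± 0.20; -1.79 with liver pools 1 and 2 and -0.88 with liver pool 3) one below 0. Mrc1 (adjusted p = 0.046; 0.63 with liver pools 1 and 2 and 0.38 with liver pool 3) kept its call in 2 of 12 fits with an array left out. The median of the macrophage list was 0.402, and it was 0.485 with liver pools 1 and 2 and 0.154 with liver pool 3. The part of cell numbers in these values was not tested.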

How the data were processed

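Total RNA of lung and liver was measured on Affymetrix arrays (45101 probe sets, of which 64 are controls). The values the authors deposited are log2 expression levels made by RMA with the affy package, per the submitters' processing notes, with versions not given in the sources used here. RMA corrects the background and equalises the intensity distributions of all arrays, so a shift shared by most genes of an array is removed. Through the platform annotation 34945 probe sets had 1 symbol, 932 had several and 9160 had none, and only the first kind was used. Of the symbols, 18032 matched RefSeq through the Entrez ID. For the 9010 genes with more than 1 probe set, that with the highest mean over all arrays was taken. Array medians were 4.49 to 4.56. Scanner intensities were not used here. Precision is set by having 3 arrays per group.

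The 4 groups were fitted in 1 limma model (limma 3.58.1, R 4.3.3, lmFit and eBayes) without covariates. Contrasts were the lung change, the liver change, their difference and their average, with Benjamini-Hochberg adjustment over 18193 genes, and an adjusted p under 0.05 was a call. Errors after ± are standard errors of the fit. The fit was tested on simulated data for the tissue difference over 18193 genes. There 200 genes were changed in pregnant lung alone, the others were left unchanged by pregnancy, and the noise was normal. The fit recovered 8.96% of seeded differences of 0.5 log2 units, 76.1% of 1 and 98.5% of 2, and 4.69% of its calls were false. The data held 1221 called differences, so these shares may not carry over to them. Pool numbers were not shown to pair lung with liver. Promoter motifs were searched on both strands.

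Genes were named by rule: the 12 largest called differences in each direction, genes called alike or oppositely in both organs, the largest in each class by size, and up to 4 called members of each list, or the 2 of lowest p in a list without calls. Fos, Ciart, Tk1, Nol3 and Grp are outside that rule or were picked after their values were seen. The members, gene lists and rules were chosen with earlier results of these data known. Alternatives were each array left out, other probe set rules, other scalings, variance models, blocks, levels and thresholds.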

Additional observations from a re-analysis of the deposited data

Results flagged for a closer look

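The response to pregnancy was unlike between the organs for 1221 genes by a direct test of the difference between the lung change and the liver change (limma, adjusted p under 0.05). Among genes expressed in both organs, 129 of these differences joined opposite signs with an unadjusted p under 0.05 in each organ. For 3 genes the opposite changes were each called, and the tissue difference was 2.42 log2 units for Ntrk2, 1.35 for Acaa1b and -1.27 for Bpgm.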

How the results depend on the processing

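Leaving out each array in turn gave 888 to 1319 called tissue differences, 3 to 12 genes called alike, 1 to 5 called oppositely, 83 to 146 with opposite signs by the wider rule and 131 to 230 with like responses. The fewest called differences came without virgin lung pool 2. The genes called alike fell to 3 without virgin lung pool 2, pregnant lung pool 1 or pregnant lung pool 2, to 4 without virgin lung pool 3, to 6 without virgin liver pool 3 and to 7 without virgin liver pool 1. Genes called oppositely fell to 1 without virgin lung pool 2 or pregnant lung pool 2, and rose to 5 without virgin lung pool 1 or virgin liver pool 2. With an adjusted p under 0.01 the counts were 564, 1, 1, 68 and 123. Genes called alike and oppositely numbered 24 and 6 with dim genes left out (10471 genes tested), 33 and 13 with a variance trend and robust moderation, and 24 and 8 with array weights, and with arrays centred on their median 5 were called oppositely. The cause was not tested. For Haghl the average change was 0.157 among probe sets without a shared-sequence suffix.

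With the pool number as a replicate block the counts were 1102, 15, 3, 120 and 200, and with pools as a random block (correlation 0.0303) they were 1300, 12, 3, 131 and 197. Deviations of lung and liver pools with the same number and state correlated at -0.092 to 0.267, over 0.1 for 2 of 6. The labels do not say whether such pools came from the same mice, and these values do not settle it. Without both liver arrays that lack spike-in signal the counts were 1139, 10, 3, 130 and 209. Of 161 named differences, 132 kept their call in all 12 fits with an array left out, and 95 kept sign and call in all 13 other settings. The differences given with liver pools 1 and 2 or with liver pool 3 share 1 lung change, from all lung arrays. All 161 had the same sign in both. These genes were picked for a called difference on the same arrays, so the like signs are no independent check. Changes under 1 log2 unit are often missed with 3 pools per group.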
